A study of Mus musculus with 4 samples.

Results

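The genes described here build the primary cilium: the intraflagellar transport (IFT) trains, the BBSome and its chaperonins, the transition zone, the motors that move the trains, and a few factors that carry membrane and Hedgehog proteins along the cilium. They were chosen by gene symbol alone, without use of their measured values. The rule found 44 genes, read by 46 probe sets, among the 19938 genes of the array that carry a single symbol. Arl13b, which the rule also names, was not analysed here. Total RNA was hybridized to 4 arrays of the Mouse Gene ST type (Affymetrix). It came from whole mouse cochleas at embryonic day (E) 15, with 2 arrays of wild-type cochleas (replicates 2 and 3) and 2 of Meis2 mutant cochleas (replicates 1 and 2). The labels call the second group Meis2 mutant, and the methods of the study give its genotype as Meis2 flox/flox; Pax2 Cre/+, which carries 2 conditional alleles of the transcription factor Meis2 and a Cre transgene driven by Pax2 regulatory sequences. This Cre acts in the otic placode and vesicle and their descendants, so that other cells of the dissected cochlea need not have lost Meis2. The sources used here do not state which alleles the wild-type embryos carried, or whether an array held 1 animal or a pool. The p-values cover the spread among the 4 arrays and no more, and part of it may be technical.

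Most cells of the developing cochlea carry a primary cilium, and on the hair cell a specialized cilium, the kinocilium, stands beside the hair bundle. Cilia hold no ribosomes, so their proteins enter at the base through the transition zone, a gate of MKS and NPHP proteins, and then travel on IFT trains. Trains of the IFT-B complex move outward with kinesin-2, IFT-A and dynein-2 bring them back, and the BBSome links membrane proteins to them. Mutations of these genes cause ciliopathies such as Bardet-Biedl, Joubert and Meckel syndromes, and loss of several of them in mice disturbs the orientation of hair bundles and the length of the cochlear duct.

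RFX transcription factors bind the promoters of many ciliary genes at the X-box, here searched as GTTNCC, 3 free bases and GNAAC on both strands. The promoters of 38 of the 44 genes were found in RefSeq (GRCm38.p6) as windows of 300 bases, with 250 before and 50 from a transcript start onward. An X-box stood in 5 of these 38 genes (13.2%), beside 0.936% of all 27025 genes with a promoter in the table. The matches are printed here because the X-box is the known mark of ciliary promoters, with 30 bases of the gene's own strand, the motif in capitals and flanks in lower case.

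Ahi1: tagtctgaGTTACCTAGGCAACagcggcag
Bbs7: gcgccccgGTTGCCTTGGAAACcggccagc
Tctn1: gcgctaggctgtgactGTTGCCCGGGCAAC
Mks1: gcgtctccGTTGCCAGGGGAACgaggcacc
B9d2: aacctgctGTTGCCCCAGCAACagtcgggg

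The Ahi1 stretch lies at chr10:20952560-20952589 on the plus strand, from base 14 to base 43 of the transcript, and that of B9d2 at chr7:25680788-25680817 on the plus strand, from base 9 to base 38. The Tctn1 stretch lies at chr5:122264411-122264440 on the minus strand, from base 21 to base 50 of the transcript. The Mks1 stretch, at chr11:87853183-87853212 on the plus strand, runs from position -32 to -3, before the start, and the Bbs7 stretch, at chr3:36613489-36613518 on the minus strand, from -129 to -100. These positions count from the transcript start of the promoter table, whose first transcribed base is 1, and several of the genes have other starts. A shorter form with 2 free bases, searched after the sequences had been read, was found in Ift57 and Tctn3.

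Ift57: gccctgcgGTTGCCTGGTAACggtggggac
Tctn3: tcccagcgGTTGCCAGGTAACgggaaccac

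These stretches lie at chr16:49699226-49699255 on the plus strand and at chr19:40612350-40612379 on the minus strand, and run from position -68 to -39 and from -148 to -119. The shorter form stood in 0.777% of all genes of the promoter table, and a form with 1 free base stood in 0 of the 38 ciliary genes. The short site GTTGCCA, which overlaps the Mks1 X-box, was held by 9 of the 38 genes (23.7%) and by 5.02% of all genes. The Meis site TGACAG was held by 7 of the 38 (18.4%), beside 21.6% of all genes. The genes with either form of the X-box went in different directions on the arrays: Ahi1, Bbs7 and Ift57 were lower in mutants, Tctn1 was higher, and Mks1, B9d2 and Tctn3 did not pass the test. A match describes the sequence and does not show a bound site, and a missing match says only that these letters are not in the window.

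Signals are log2 values that the authors computed with robust multi-array analysis (RMA), and every difference given here is mutant minus wild type on that scale, so that a difference of 1 is 2-fold. The test was limma, and p-values were adjusted by Benjamini-Hochberg across the whole table of 35556 probe sets, with a gene called where the adjusted p was under 0.05. Of the 44 ciliary genes, 16 were lower (36.4%), 9 were higher (20.5%) and 19 did not pass. Of all probe sets, 15.7% were lower and 21.6% were higher. The median difference was -0.26 over the ciliary genes and 0.11 over all probe sets. Both mutant arrays lay below both wild-type arrays for 25 ciliary genes and above them for 13, beside 26.4% and 49.7% of all probe sets. A fall of at least 2-fold was measured for 6 genes (Ift20, Ift74, Cep290, Ift57, Bbs5 and Ift81) and a rise of that size for 0, beside 4.6% and 1.81% of all probe sets, so that falls of this size outnumbered rises over the whole array as well. These are bulk samples, in which fewer cells of a type and less RNA per cell cannot be told apart.

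**Figure D1:**
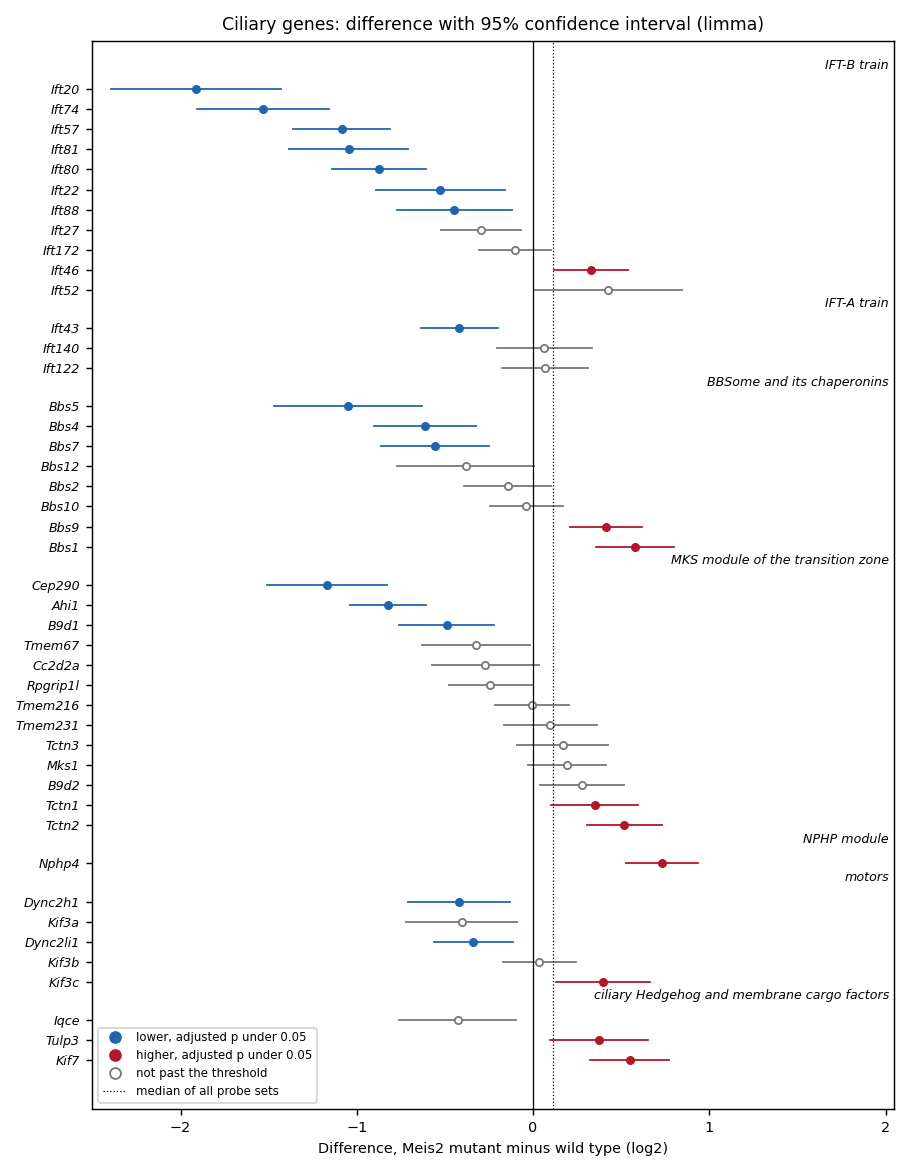
Difference between Meis2 mutant and wild-type arrays (x axis, log2) for each of the 44 ciliary genes, ordered by role. Points are limma estimates from 2 arrays a group, bars are 95% confidence intervals, filled points passed the adjusted threshold of 0.05, and the dotted line is the median of all probe sets at 0.11. The points reach from -1.91 for Ift20 to 0.73 for Nphp4, and the low end is held by IFT-B genes, Cep290 and Bbs5.

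Among the groups of genes by role, the IFT-B genes, whose products form the outward train, held the most falls and the largest of them. Of the 11 genes measured, 7 were lower (63.6%), 1 was higher (9.09%) and 3 did not pass, with a median difference of -0.53. Of all genes with 1 symbol, 16.2% were lower and 24.2% higher. Ift20, whose product also sits at the Golgi and sorts membrane proteins toward the cilium, gave signals of 10.83 and 11.17 in wild type and 9.30 and 8.88 in mutants. Both mutant arrays lay well below both wild-type arrays. The difference of -1.91 (SE 0.19, adjusted p = 0.00417) is a 3.77-fold fall, the largest among the 44 genes. Ift74 and Ift81 encode partners that bind tubulin together. Ift74 had 7.15 and 7.49 in wild type and 5.89 and 5.69 in mutants, a difference of -1.53 (SE 0.15, adjusted p = 0.00396). Ift81 had 8.11 and 8.44 in wild type and 7.25 and 7.20 in mutants, a difference of -1.05 (SE 0.13, adjusted p = 0.00634). Both partners thus fell by more than 2-fold. Neither overlapped between the groups, beside 26.4% of all probe sets that lay lower without overlap.

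Ift57 and Ift80 belong to the peripheral part of the IFT-B train. Ift57, whose promoter holds the shorter X-box printed above, had 8.04 and 8.27 in wild type and 7.08 and 7.06 in mutants, a difference of -1.09 (SE 0.11, adjusted p = 0.00417). Ift80, mutated in Jeune thoracic dystrophy, had 8.30 and 8.41 in wild type and 7.57 and 7.38 in mutants, a difference of -0.87 (SE 0.10, adjusted p = 0.00566). Neither gene overlapped between the groups, a kind of fall shared by 26.4% of all probe sets. Smaller falls were measured for Ift22, a small GTPase, at -0.53 (adjusted p = 0.0418), and for Ift88, the Polaris subunit mutated in the Oak Ridge polycystic kidney mouse, at -0.45 (adjusted p = 0.0471). Repeated quantile normalization ends the calls of Ift22 (limma adjusted p = 0.0531) and Ift88 (limma adjusted p = 0.0764).

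The other 4 IFT-B genes did not fall past the threshold. Ift27, a small GTPase that couples the BBSome to the train, had 8.22 and 8.14 in wild type and 7.94 and 7.83 in mutants, a difference of -0.30 with an adjusted p of 0.0549. Ift172, the subunit at the tip of the periphery, had 8.47 and 8.52 in wild type and 8.41 and 8.38 in mutants, and its difference of -0.10 had a 95% confidence interval from -0.31 to 0.10. Ift46, which binds the outer dynein arm cargo in other organisms, was the 1 IFT-B gene that was higher, at 0.33 (adjusted p = 0.0343). That call is lost without each array in turn. Ift52, which joins the core subunits, stood at 0.43 without passing (adjusted p = 0.0959), with 8.75 and 9.19 in wild type and 9.38 and 9.41 in mutants. Within the train the differences therefore ran from -1.91 to 0.43.

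**Figure D2:**
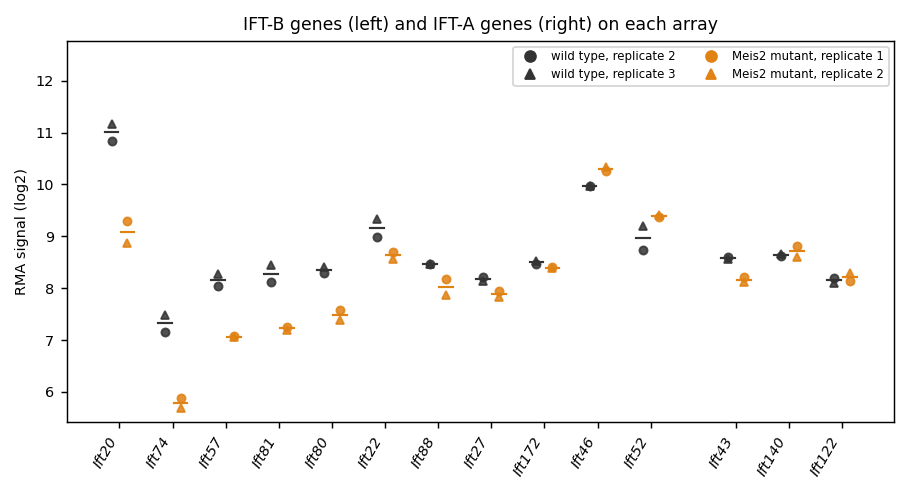
RMA signal (y axis, log2) of the 11 IFT-B genes on the left and 3 IFT-A genes on the right, with 1 symbol per array and a bar at each group mean. Wild-type arrays are dark and mutant arrays orange, circles and triangles tell the 2 replicates of a group apart, and for Ift20, Ift74, Ift57, Ift81 and Ift80 both orange symbols lie clearly below both dark ones.

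The IFT-A complex, which brings trains back and lets membrane receptors into the cilium, was measured by 3 genes of the rule. Ift43, a small peripheral subunit, was lower, with 8.60 and 8.57 in wild type and 8.22 and 8.11 in mutants, a difference of -0.42 (SE 0.08, adjusted p = 0.0201). The Ift43 call is lost without each array in turn. Ift140 had 8.63 and 8.67 in wild type and 8.82 and 8.60 in mutants, and Ift122 had 8.19 and 8.11 in wild type and 8.14 and 8.29 in mutants. The arrays of the groups overlapped for these 2 core subunits. Their differences of 0.06 and 0.07, with 95% confidence intervals from -0.20 to 0.33 and from -0.17 to 0.31, change sign when the arrays are shifted to a common median.

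The BBSome genes split, with 3 of 8 lower (37.5%), 2 higher (25%) and 3 that did not pass. Of all genes with 1 symbol, 16.2% were lower and 24.2% higher. Bbs5, which binds phosphoinositides in the ciliary membrane, had 7.20 and 7.55 in wild type and 6.18 and 6.47 in mutants, a difference of -1.05 (SE 0.16, adjusted p = 0.0102). Bbs4, the subunit that binds centriolar satellites, had 7.86 and 8.11 in wild type and 7.40 and 7.35 in mutants, a difference of -0.61 (SE 0.11, adjusted p = 0.0156). Bbs7, whose X-box is printed above, had 8.19 and 8.36 in wild type and 7.60 and 7.84 in mutants, a difference of -0.56 (SE 0.12, adjusted p = 0.0229). For each of these 3 subunits the groups did not overlap, and 26.4% of all probe sets likewise lay lower without overlap. Bbs1, which contacts the GTPase Arl6 on the membrane, had 8.68 and 8.57 in wild type and 9.18 and 9.22 in mutants, a difference of 0.58 (SE 0.09, adjusted p = 0.00911). Bbs9, the scaffold of the coat, had 9.33 and 9.37 in wild type and 9.74 and 9.79 in mutants, a difference of 0.41 (SE 0.08, adjusted p = 0.0175). Subunits of the same coat thus passed the threshold in opposite directions. Bbs2, another coat subunit, had 8.48 and 8.66 in wild type and 8.43 and 8.42 in mutants, a difference of -0.14 (95% confidence interval -0.39 to 0.10). Of the chaperonins that assemble the coat, Bbs10 had 7.07 and 7.14 in wild type and 7.06 and 7.07 in mutants (-0.04, 95% confidence interval -0.24 to 0.17), and Bbs12 stood at -0.38 (adjusted p = 0.103).

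The MKS module is the membrane-bound part of the transition zone gate. Of its 13 genes, 3 were lower (23.1%), 2 higher (15.4%) and 8 did not pass, with a median difference of -0.01. Of all genes with 1 symbol, 16.2% were lower and 24.2% higher. Cep290, which tethers the ciliary membrane to the microtubules and is mutated in Joubert syndrome and in a retinal blindness, had 6.30 and 6.63 in wild type and 5.29 on both mutant arrays, a difference of -1.17 (SE 0.13, adjusted p = 0.00511). The deposited value is the same on both mutant arrays, as for 31 probe sets in all, and at this low signal the residual spread of the mutant group is 0. Cep290 also had the lowest mean signal of the ciliary genes, at 5.88. Ahi1, the Jouberin of Joubert syndrome, had 8.08 and 8.18 in wild type and 7.29 and 7.32 in mutants, a difference of -0.83 (SE 0.08, adjusted p = 0.00435). B9d1, of the B9 domain complex, had 8.24 and 8.30 in wild type and 7.89 and 7.67 in mutants, a difference of -0.49 (SE 0.10, adjusted p = 0.023).

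The tectonics are secreted or membrane proteins of the same gate, and Tctn2 and Tctn1 were higher. Tctn2 had 7.96 and 8.05 in wild type and 8.54 and 8.51 in mutants, a difference of 0.52 (SE 0.08, adjusted p = 0.0109). Tctn1 had 8.09 and 8.22 in wild type and 8.44 and 8.56 in mutants, a difference of 0.35 (SE 0.10, adjusted p = 0.0431), and this call is lost under median scaling and without each array in turn. A second, dimmer Tctn1 probe set had 6.33 and 6.49 in wild type and 6.66 and 6.64 in mutants, a difference of 0.24 that did not pass (adjusted p = 0.0948). Both Tctn1 probe sets were higher on the mutant arrays, and Tctn3 stood at 0.17 (adjusted p = 0.234). Among the other gate proteins, Tmem67, the Meckelin receptor, stood at -0.32 (adjusted p = 0.0892), Cc2d2a at -0.27, Rpgrip1l at -0.24, Mks1 at 0.19 and B9d2 at 0.28, none of which passed. Tmem216 and Tmem231, both membrane proteins of the gate, differed least. Tmem216 had 7.68 and 7.75 in wild type and 7.73 and 7.68 in mutants, and Tmem231 had 8.75 and 8.79 in wild type and 8.97 and 8.76 in mutants. Their 95% confidence intervals ran from -0.21 to 0.20 and from -0.16 to 0.36.

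**Figure D3:**
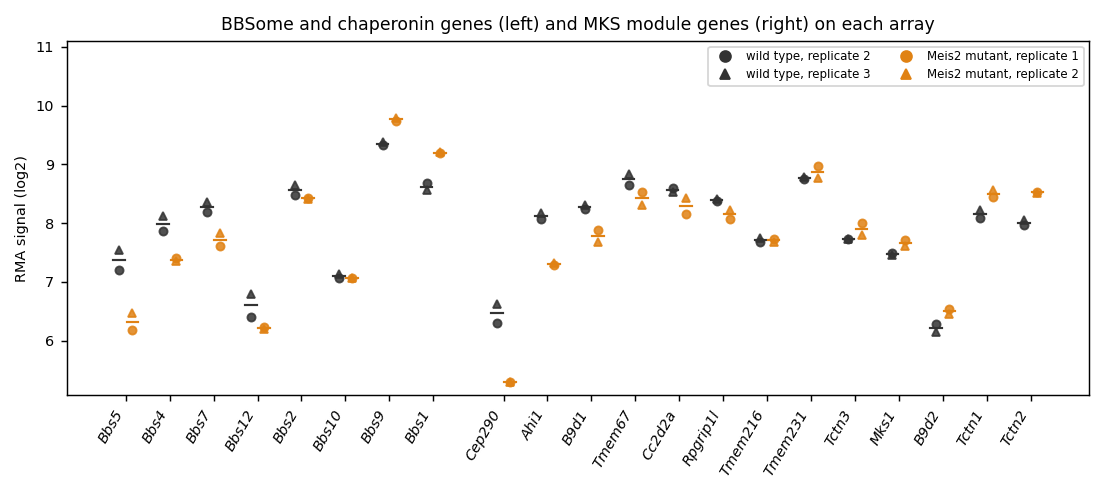
RMA signal (y axis, log2) of the 8 BBSome and chaperonin genes on the left and the 13 MKS module genes on the right, with 1 symbol per array and a bar at each group mean. Dark symbols are wild-type arrays and orange symbols mutant arrays, and the orange symbols lie below for Bbs5, Bbs4, Bbs7, Cep290, Ahi1 and B9d1 and above for Bbs9, Bbs1, Tctn1 and Tctn2.

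Nphp4, which organizes the NPHP part of the gate and is mutated in nephronophthisis, had the largest rise among the 44 genes. Its signals were 6.95 and 6.97 in wild type and 7.73 and 7.66 in mutants, a difference of 0.73 (SE 0.08, adjusted p = 0.00487). The groups lay much farther apart than the arrays within either group.

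Both dynein-2 genes of the rule were lower. Dync2h1, the heavy chain of the motor for the return of trains, had 7.71 and 7.83 in wild type and 7.46 and 7.24 in mutants, a difference of -0.42 (SE 0.11, adjusted p = 0.0397). Dync2li1, its light intermediate chain, had 8.11 and 8.15 in wild type and 7.85 and 7.73 in mutants, a difference of -0.34 (SE 0.09, adjusted p = 0.0369). Its call is lost under repeated quantile normalization (limma adjusted p = 0.054). With 1 array left out, the difference ranged from -0.53 to -0.31 for Dync2h1 and from -0.40 to -0.28 for Dync2li1. Both calls are lost without each array in turn. Of the kinesin-2 genes, Kif3a stood at -0.41 without passing (adjusted p = 0.0538). Kif3b, its partner in the outward motor, had 8.32 and 8.40 in wild type and 8.40 and 8.39 in mutants, a difference of 0.04 (95% confidence interval -0.17 to 0.24). Kif3c, a kinesin-2 found mainly in neurons, was higher, with 8.13 and 8.11 in wild type and 8.41 and 8.62 in mutants, a difference of 0.39 (SE 0.10, adjusted p = 0.0383). Median scaling ends this call (limma adjusted p = 0.0816), and the call is lost without each array in turn.

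Of the 3 factors that tie the cilium to Hedgehog signals and membrane cargo, Tulp3 and Kif7 were higher. Tulp3, which delivers receptors into the cilium through IFT-A, had 9.39 and 9.61 in wild type and 9.85 and 9.90 in mutants, a difference of 0.37 (SE 0.11, adjusted p = 0.0483), a call that median scaling ends (adjusted p = 0.0931). Kif7, which organizes the ciliary tip where Gli proteins gather, was read by 2 probe sets that disagree. The brighter had 7.58 and 7.64 in wild type and 8.22 and 8.10 in mutants, a difference of 0.55 (SE 0.09, adjusted p = 0.0107). The other had 7.45 and 7.46 in wild type and 7.29 and 7.29 in mutants, a difference of -0.17 (adjusted p = 0.144), so that the call for Kif7 holds for 1 of its probe sets. Iqce, which recruits the Evc complex at the base of the cilium, had 8.06 and 8.31 in wild type and 7.66 and 7.86 in mutants, a difference of -0.43 that did not pass (adjusted p = 0.0546).

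The calls differed in how far they depended on a single array, looked at by leaving out 1 array at a time. For Cep290, leaving out either mutant array could not change the difference, since both hold the same value. Without each of the 4 arrays in turn, 8 of the 16 lower genes passed every time (Ift20, Ift74, Ift57, Ift81, Ift80, Bbs5, Cep290 and Ahi1), and of the 9 higher genes Nphp4 did. The lower count was 9 without wild-type replicate 3, 10 without mutant replicate 1 and 8 without mutant replicate 2, while that over all probe sets fell from 5573 to 4643, 3252 and 2613. The higher count was 4 without wild-type replicate 2 and 1 without either mutant array, while that over all probe sets fell from 7695 to 5470 without the former and to 2559 and 1998 without mutant replicates 1 and 2. Calls were thus lost over the whole array and not among the ciliary genes alone. Shifting the arrays to a common median ended the higher calls of Ift46, Tctn1, Kif3c and Tulp3. The wild-type arrays were themselves unequal over these genes, since replicate 3 exceeded replicate 2 for 33 of 44, and for 8 of the 11 IFT-B genes with a median gap of 0.23. The mean signal over the 44 genes was 8.15 in wild-type replicate 2 and 8.27 in replicate 3. Over all genes with 1 symbol it was 7.32 and 7.38, so replicate 3 was higher there too. Mutant replicate 2 exceeded replicate 1 for 15 of the 44.

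Signal level moved with the calls. Of the 19 ciliary genes with a mean signal between 6 and 8, 10 were lower, beside 17.2% of all genes at that level. Of the 22 between 8 and 10, 4 were lower and 6 higher, beside 27.9% and 26.2% of all genes. Pearson's r between mean signal and difference was 0.27 over the 44 ciliary genes and -0.13 over all probe sets, values that share the same 4 arrays and are given as a description. In all, 40 of the 44 genes had a mean signal above the median of all probe sets.

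Subunits that do not bear a name of the rule extend the picture of each complex. This grouping was written after the values were seen and serves as a description of counts. The counts stand beside 16.2% lower and 24.2% higher over all genes with 1 symbol. With Hspb11, known as Ift25, and other IFT-B subunits added, 9 of 17 IFT-B genes were lower and 1 was higher. Among them the core had 5 of 11 lower and the periphery 4 of 6, with a median difference of -0.86 in the periphery. IFT-A had 2 of 6 lower and the BBSome 3 of 7 lower and 2 higher. Dynein-2 had 3 of 7 lower and 0 higher, but 1 of these, Dynll1, is a light chain that other dyneins and many other proteins share. Kinesin-2 had 1 of 4 lower, the adaptor Kifap3, and 1 higher. The MKS module had 4 of 16 lower and 3 higher, and the NPHP and inversin group 1 of 6 lower and 2 higher.

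**Figure D4:**
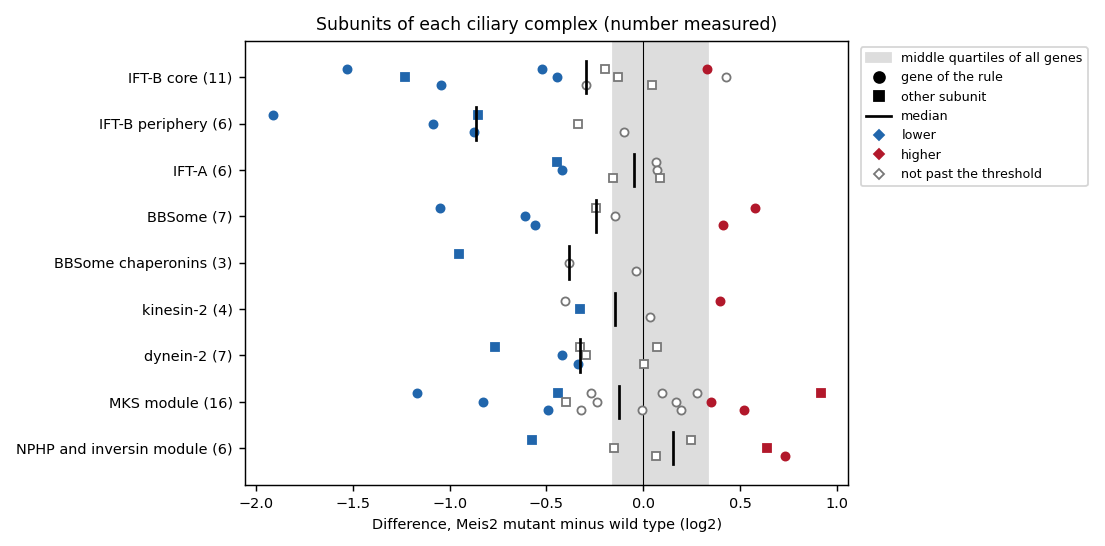
Difference between Meis2 mutant and wild-type arrays (x axis, log2) for each measured subunit of 9 ciliary complexes or parts of them, with circles for genes of the rule, squares for other subunits and a vertical line at each median. Blue passed the threshold as lower and red as higher, and the gray band spans the middle quartiles of all genes, from -0.16 to 0.33. The periphery of IFT-B has its median at -0.86 and no red symbol, and the BBSome has symbols on both sides.

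Beyond the rule, 77 other ciliary genes were measured from lists of partners. Of these, 21 were lower (27.3%) and 12 higher (15.6%), with a median difference of -0.11. Over all genes with 1 symbol, 16.2% were lower and 24.2% higher, with a median difference of 0.13. Among other train, BBSome and motor subunits, 7 of 20 were lower (35%) and 1 was higher (5%). Lztfl1, which regulates BBSome traffic, had 10.43 and 10.53 in wild type and 9.31 and 9.09 in mutants (-1.28, adjusted p = 0.00335). Hspb11 had 7.71 and 8.10 in wild type and 6.65 and 6.70 in mutants (-1.23, adjusted p = 0.00574). Mkks, the third BBSome chaperonin, was lower, at -0.95 (adjusted p = 0.00874). All 3 lay lower without overlap between the groups, as did 26.4% of all probe sets. Among other transition zone and inversin genes, 4 of 18 were lower and 4 higher (22.2% each). Rpgr, the X-linked retinitis pigmentosa GTPase regulator, stood at -1.29 (adjusted p = 0.00346), Tmem107 at 0.92 (adjusted p = 0.00496) and Tmem138 at 0.88 (adjusted p = 0.00776).

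Genes of the centriole appendages, which dock the centriole before a cilium grows, had 7 of 21 lower (33.3%) and 2 higher (9.52%). Cep83, the base of the distal appendage, had 8.09 and 8.28 in wild type and 6.53 and 6.41 in mutants, a difference of -1.72 (adjusted p = 0.00267). Sclt1, which the Cep83 protein brings to the appendage, had 6.87 and 7.05 in wild type and 5.63 and 5.58 in mutants, a difference of -1.36 (adjusted p = 0.00287). Cep19, which helps to start transport, stood at -0.92 (adjusted p = 0.0153). Among ciliary membrane enzymes and carriers, 3 of 18 were lower (16.7%) and 5 higher (27.8%), near the 16.2% and 24.2% of all genes with 1 symbol. Rab23, a GTPase that restrains Hedgehog signals, was at -1.28 (adjusted p = 0.0039), Rp2, an X-linked carrier factor, at -0.95 (adjusted p = 0.0185), and the polycystin Pkd1 at 1.02 (adjusted p = 0.00669).

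Hedgehog signals are read through the cilium, and of 14 Hedgehog genes 8 were higher (57.1%) and 0 lower, with a median difference of 0.53. Over all genes with 1 symbol, 24.2% were higher and 16.2% lower, with a median difference of 0.13. The receptor and target Ptch1 had 10.02 and 9.79 in wild type and 11.10 and 10.99 in mutants (1.14, adjusted p = 0.00424), with Gli2 at 1.10 (adjusted p = 0.00305) and Disp1 at 0.91 (adjusted p = 0.00496). Of 12 regulators of ciliary genes, 5 were higher (41.7%) and 0 lower. The higher genes included the X-box factors Rfx1 at 0.79 (adjusted p = 0.00732) and Rfx2 at 0.76 (adjusted p = 0.00646), and the motile cilia regulator Foxj1 at 0.36 (adjusted p = 0.0419). Of 22 genes of motile cilia, which the cochlea is not known to carry, 6 were higher (27.3%) and 1 lower, at a median signal of 5.83, and the higher share is near the 24.2% of all genes with 1 symbol. The lower gene was Ccdc39 at -0.71 (adjusted p = 0.00718), and Tekt4 at 0.43 (adjusted p = 0.0214) and Drc1 at 0.38 (adjusted p = 0.0356) had the largest differences among the higher genes.

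The labels and the makeup of the samples were looked at on the same arrays. The probe set for Meis2 itself read 9.64 and 9.38 in wild type and 9.61 and 9.80 in mutants (0.19, adjusted p = 0.284), and where its probes lie relative to the deleted part is not known here, so it does not check the labels. Xist was at 5.54 and 11.51 in wild type and 11.83 and 11.84 in mutants, and thus split the wild-type arrays. Y-linked Eif2s3y was at 8.76 and 7.77 in wild type and 4.68 and 4.88 in mutants, and Kdm5d and Uty were likewise lower in mutants. Wild-type replicate 3 therefore carried high signals of both Xist and the Y-linked genes, and the arrays were unequal in sex. None of the 44 genes lies on X or Y. The counts of the marker lists stand beside 24.2% higher and 16.2% lower over all genes with 1 symbol. Muscle had 9 of 12 genes higher (75%), with a mean signal of 5.85 and 6.04 in wild type and 6.36 and 6.63 in mutants. Hair cells had 6 of 15 higher and 1 lower (6.65 and 6.80, then 6.97 and 7.07). Spiral ganglion neurons had 6 of 14 lower and 0 higher (8.91 and 8.99, then 8.45 and 8.44), and glia had 3 of 7 lower and 1 higher (8.96 and 9.03, then 8.66 and 8.73). Prosensory and supporting cells had 4 of 12 lower and 2 higher, mesenchyme 3 of 10 lower and 1 higher, and dividing cells 4 of 11 lower and 3 higher. Cartilage had 2 of 9 higher (22.2%), near the share of all genes, and 0 lower. Red blood cells had 2 of 3 higher and 1 lower, and macrophages 1 of 8 higher. Endothelium, with 8 genes, and hindbrain, with 10, had 0 past the threshold by limma. The Y-linked signals separated the groups fully, and the part of sex in the ciliary differences cannot be told apart from that of genotype. The part of these cell types in the ciliary differences was not tested.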

How the data were processed

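RNA of whole E15 cochleas was labeled and hybridized to 4 arrays. The authors deposited log2 values from RMA, a background correction and normalization between arrays that summarizes probes into 35556 probe sets. Both RMA and the build mm8 are named in the submitters' processing notes, and no mm8 coordinates were used. Scanner files were not used here. The number of arrays limits the precision, with 2 residual degrees of freedom per probe set and 2.91 from the prior.

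Differences were fitted with limma 3.58.1 in R 4.3.3 (lmFit, eBayes, no covariate or filter) over all probe sets. Of these, 21789 carried 1 gene symbol in the platform annotation, 1621 several and 12146 none, and 21698 of the first were matched to a current RefSeq record. A gene is represented by its brightest probe set, by the mean over the 4 arrays. The methods name significance analysis of microarrays (SAM), which was run as an alternative with all 6 relabelings of the arrays. The other alternatives were median scaling, repeated quantile normalization, a filter at a mean signal of 6, probe sets with 1 symbol, trended and robust priors, the mean of a gene's probe sets, a threshold of 0.1 and leaving out each array.

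Values on every array are given for up to 5 genes of each role past the threshold with the largest difference and up to 2 with the smallest among those above the median signal. For the partner, Hedgehog, regulator and motile cilia lists, up to 3 genes past the threshold are named. Dynll1, Kifap3, Ift22, Ift88, Ift46, Ift52 and the others outside this rule were added so that each group is accounted for. The genes and lists were chosen with earlier results of these data known. The code was tested on simulated data. Promoter sequences are from RefSeq.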

Additional observations from a re-analysis of the deposited data

How the results depend on the processing

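No paired analysis was possible because the groups share only replicate number 2. The limma counts over the 44 ciliary genes were 16 lower and 9 higher, and over the 77 partner genes 21 lower and 12 higher. SAM called 25 ciliary genes lower and 13 higher, and 36 partner genes lower and 25 higher, and over all 35556 probe sets it called 9184 lower and 17778 higher. With 6 relabelings SAM thus called 26962 probe sets, most of the array, and a SAM call sets a gene little apart. Its ciliary counts equal those of genes without overlap between the groups. Median scaling, which moved the median of all probe sets by -0.08, gave 19 ciliary genes lower and 5 higher, with the higher calls of Ift46, Tctn1, Kif3c and Tulp3 lost, and raised the share of lower calls among all calls from 42.0% to 56.0%. Leaving out 1 array at a time gave 8 to 14 ciliary genes lower and 1 to 7 higher, 9 to 24 partner genes lower and 6 to 11 higher, and a median difference of -0.24 to -0.16. With an array left out, the remaining array of its genotype is assumed to vary like the others. The median stayed below 0 under every alternative run, at -0.34 under median scaling and -0.18 under repeated quantile normalization. The 2 priors, SAM, the limit to 1 symbol and the threshold of 0.1 leave each difference unchanged. The median could not move under those settings. The counts under the remaining alternatives lay within 1.5 times those given first. Genes close to 0 changed sign. Under median scaling Ift122 stood at -0.015, Ift140 at -0.020 and Kif3b at -0.048, and under repeated quantile normalization Tmem216 stood at 0.028. With 1 array left out, Ift122 ranged from -0.0069 to 0.15, Ift140 from -0.044 to 0.17, Kif3b from -0.00089 to 0.072, Tmem216 from -0.039 to 0.026 and Tmem231 from -0.0044 to 0.20. The cause was not tested.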
